A study of Homo sapiens with 2 samples.

Results

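The COPII coat, the protein coat that buds transport vesicles from the endoplasmic reticulum (ER), was followed through the mRNAs of its 10 subunits: SAR1A, SAR1B, SEC23A, SEC23B, SEC24A, SEC24B, SEC24C, SEC24D, SEC13 and SEC31A. Members were found by gene symbol, and all 10 had a row in both deposited tables, which hold 25277 rows each. The set was chosen by the measured ratio of PERK-KO to WT, with SEC24D's large value in view, so all ratios of the members are given as a description and carry no test. RNA was sequenced from HEK293 cells, a line derived from human embryonic kidney, at passage 15 to 20. The WT sample was the unmodified line. The PERK-KO sample had lost PERK, the ER kinase encoded by EIF2AK3 that phosphorylates eIF2alpha during ER stress, through CRISPR/Cas9 editing. Edited lines were grown from single cells and their loss of PERK was examined by immunoblotting, but which guide and which clone gave the sequenced sample is not given in the sources used here. Both were kept for 12 h in OXPHOS medium, which is glucose-free and contains 10 mM galactose, 1 mM pyruvate and 10% fetal bovine serum, so that ATP has to come largely from mitochondrial respiration.

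There was 1 sample per genotype and no replicate, so genotype, clone, culture and library cannot be told apart. Each level is given as FPKM, a fragment number scaled by transcript length and library size, with its deposited 95% confidence limits. The limits, and the intervals of ratios derived from them, cover the error of measuring 1 library and not the spread between cultures. Higher and lower are used below of these 2 samples only.

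In COPII coat assembly, a SAR1 GTPase loaded with GTP inserts into the ER membrane and recruits the SEC23 and SEC24 heterodimer, which forms the inner layer. SEC24 binds the sorting signals of cargo and SEC23 accelerates GTP hydrolysis by SAR1. SEC13 and SEC31 then assemble into the outer cage. Humans have several paralogues of SAR1, SEC23 and SEC24, and the SEC24 paralogues differ in the cargo signals they recognise, with SEC24A and SEC24B forming a closely related pair and SEC24C and SEC24D another. Transcription factors of the unfolded protein response, among them XBP1 and ATF6, are known to act on many genes of the secretory pathway.

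The targeted gene and the cell markers were examined first. EIF2AK3 mRNA was at 5.61 FPKM (5.11 to 6.12) in the WT sample against 3.89 (3.44 to 4.34) in the knockout, a log2 ratio of -0.53, so the transcript was still present and this measurement does not show the protein. Of 5 HEK293 markers, the neurofilament gene NEFL was abundant in both samples, at 44.9 and 33.4 FPKM, whereas NEFM was at 0.662 in WT and 5.21 in PERK-KO cells, and INA at 0.458 and 4.13. The kidney developmental genes LHX1 and PAX2 were at 4.65 and 0.981 FPKM in WT cells and at 2.88 and 0.748 in PERK-KO cells. The summed level of these 5 markers, most of it from NEFL, was 51.6 FPKM in WT and 46.4 in PERK-KO cells. Of 9 markers of other cell types, 6 were at 0 in both samples (CD3E, ALB, COL1A2, FABP4, UCP1 and HBB), and the 9 together summed to 1.78 FPKM in WT and 1.61 in PERK-KO cells, nearly all of it from ADIPOQ. Among the 14594 genes that reached 1 FPKM in at least 1 sample, called expressed genes here, the median log2 ratio was 0.04, but it ran with transcript length, from -0.38 for transcripts under 1000 bases to 0.30 for those of 6000 bases or more. For this reason the median of the expressed genes nearest in transcript length is set beside each member's log2 ratio below, with lengths for 92.6% of expressed genes. The part of length in the results was not tested.

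Of the 10 members, 7 were higher in the PERK-KO sample by a factor above 1.5, against 10.1% of expressed genes, and 0 were more than 1.5-fold lower, against 7.54%. The 7 were the 4 SEC24 genes, both SEC23 genes and SEC31A. The members' median log2 ratio was 0.66. For 8 of 10 the PERK-KO confidence interval lay wholly above the WT interval, against 26.1% of expressed genes, and the exceptions were SAR1A and SAR1B. Of the members, 3 were more than 2-fold higher (SEC24D, SEC31A and SEC24A), against 3.28% of expressed genes. Because these ratios took part in choosing the set, nothing is read from the counts. Just inside the 1.5-fold limit was SEC23B with 1.57-fold, and just outside it was SEC13 with 1.36-fold. The same 8 members lay above the median of expressed genes of like transcript length, and the 2 SAR1 genes below it. By definition a median has as many genes above it as below.

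**Figure D1:**
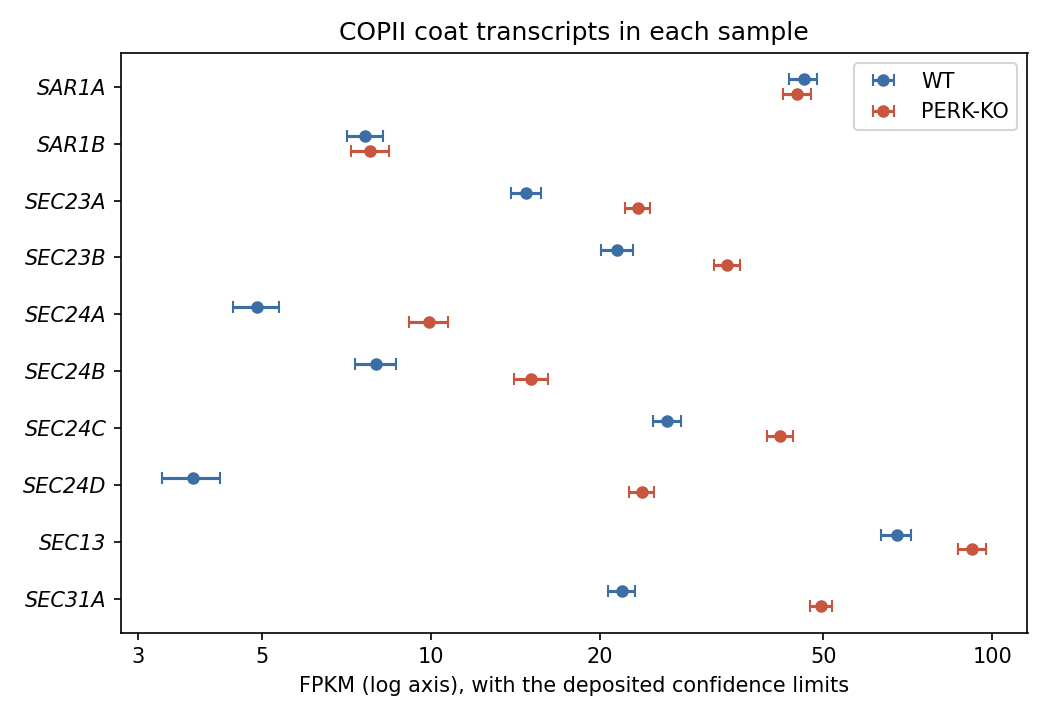
FPKM of the 10 COPII members in WT and PERK-KO HEK293 cells on a log axis, 1 point per sample, with bars for the deposited 95% confidence limits. The PERK-KO point lies to the right of the WT point, at a higher level, with separate bars for every member except SAR1A and SAR1B. The gap is widest for SEC24D, from 3.76 to 23.8 FPKM.

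The promoters of the members were searched for motifs of ER stress factors, in the window from 250 bases before to 50 bases after the start, in RefSeq sequence on GRCh38.p14. The table holds 27305 genes and 9 of the 10 members. SEC24D was not among them. The core of the unfolded protein response element, TGACGTGG on either strand, is known to be bound by XBP1 and ATF6. It stood in the windows of SEC24A and SEC23A, and 0.927% of the 27305 genes had it in at least 1 window. Both stretches are shown because the other 7 members searched lacked this motif, which is in capitals, on the strand of the gene.
SEC24A: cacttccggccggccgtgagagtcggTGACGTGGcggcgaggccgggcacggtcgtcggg
SEC23A: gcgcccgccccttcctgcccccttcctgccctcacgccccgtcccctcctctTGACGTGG

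The SEC24A stretch lies at chr5:134648580-134648639 on the plus strand, with the motif's first base 179 bases before the start. The SEC23A stretch lies at chr14:39103232-39103291 on the minus strand, with the motif's first base 4 bases before the start and 4 of its bases past it. The ER stress response element, in which CCAAT and CCACG are 9 bases apart, was in 0 of the 9 members and 0.0916% of the 27305 genes. ERSE-II, in which ATTGG and CCACG are 1 base apart, was in 0 and 0.0696%. The cAMP response element TGACGTCA, which shares TGACG with the first motif, was in 0 and 2.25%, and the C/EBP-ATF composite site TGATGNAAT, which ATF4 is known to bind, in 0 and 1.22%. A match describes letters in the window and is not evidence of binding. SEC24A and SEC23A, with the motif, had PERK-KO over WT ratios of 2.03 and 1.58, and the other members searched ranged from 0.975 to 2.27.

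SEC24D, 1 of the 4 cargo-binding subunits, was at 3.76 FPKM (3.32 to 4.20) in the WT sample against 23.8 FPKM (22.6 to 24.9) in the knockout. It was the least abundant of the 10 members in WT cells and the sixth in order in PERK-KO cells. The ratio was 6.32 (5.56 to 7.18), a log2 ratio of 2.66 (2.48 to 2.84), and 2.52 above the median of genes of like length. In the width of the confidence intervals the WT value corresponded to 289 fragments and the PERK-KO value to 1612, so neither rested on a handful of reads. Of expressed genes, 128 had a larger ratio than SEC24D and 99.1% a smaller one. By name, 92 of the 128 were small RNA genes, whose FPKM is poorly determined in a poly(A) library. Among the 13594 other genes that reached 1 FPKM in both samples, 0 had a larger ratio than SEC24D. This rank depends on that stricter filter, since the rest of the 128 were below 1 FPKM in a sample. Among them were the markers NEFM, with a ratio of 7.87 (5.54 to 11.2), and INA, with 9.01 (6.03 to 13.5).

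**Figure D2:**
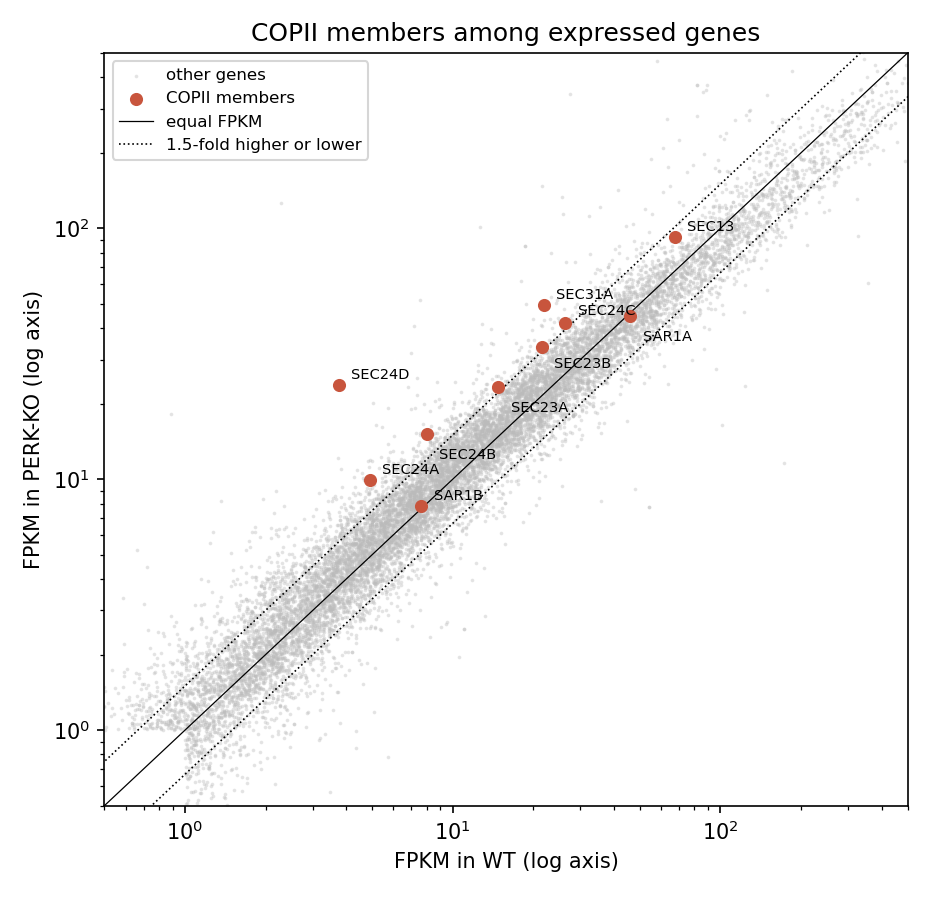
FPKM in PERK-KO cells against FPKM in WT cells for expressed genes, on log axes from 0.5 to 500. The 10 COPII members are marked in colour and named. The solid line is equal FPKM and the dotted lines are 1.5-fold higher and lower. SEC24D lies farthest above the solid line among the members, at 3.76 and 23.8 FPKM, while SAR1A and SAR1B lie close to it.

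SEC24D lies at chr4:119643978-119757326 on the minus strand (hg19) and has 23 exons in a canonical transcript of 4018 bases. Within 1 Mb of it there were 10 other expressed genes, with log2 ratios from -0.73 to 1.41 and a median of 0.38. Of the 10, 3 were more than 1.5-fold higher, against 10.1% of expressed genes, and 2 were more than 1.5-fold lower (SNHG8 and C4orf3), against 7.54%. The nearest expressed genes on either side were METTL14, a subunit of the RNA methyltransferase for N6-methyladenosine, with 8.97 FPKM in WT and 11.2 in PERK-KO cells, and USP53, of the ubiquitin-specific protease family, with 3.51 and 5.13. Their log2 ratios of 0.32 and 0.55 were below that of SEC24D. Measured by distance in log2 FPKM of both samples, the genes nearest to SEC24D were SNORA81 (5.04 and 20.2 FPKM, with wide intervals of 0 to 13.8 and 3.04 to 37.3), the pseudogene MSTO2P (5.73 and 19.3, uncertain because it shares sequence with MSTO1) and ERO1LB (5.16 and 16.5), which encodes an oxidase that helps form disulfide bonds in the ER. With 2 samples this likeness rests on 2 values per gene.

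The other SEC24 genes were higher in PERK-KO cells by smaller factors. SEC24A, at chr5:133984475-134063601 on the plus strand with 23 exons, was at 4.90 FPKM (4.43 to 5.37) in WT against 9.93 (9.13 to 10.7) in the PERK-KO sample, a ratio of 2.03 (1.79 to 2.30). SEC24B, at chr4:110354971-110461615 on the plus strand with 24 exons, went from 7.99 (7.31 to 8.67) to 15.1 (14.05 to 16.1), a ratio of 1.89 (1.69 to 2.11). SEC24C, at chr10:75504131-75531933 on the plus strand with 23 exons, was the most abundant SEC24 in both samples, with 26.4 FPKM (24.9 to 27.9) and 41.9 (39.7 to 44.1), a ratio of 1.59 (1.47 to 1.72). The intervals of the 2 samples did not overlap for any of the 3. Relative to genes of like length their log2 ratios were higher by 0.78 for SEC24A, 0.73 for SEC24B and 0.51 for SEC24C. The antisense gene SEC24B-AS1 was at 6.16 FPKM in WT and 5.57 in PERK-KO cells. It ends at chr4:110354973, so it overlaps only the first few bases of SEC24B. The strand setting of the counting is not given in the sources used here, so reads from that short overlap cannot be assigned between the pair.

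The difference in response between paralogues was compared within each family, over 8 pairs. SEC24D exceeded SEC24A by 1.64 on the log2 scale (1.38 to 1.90), SEC24B by 1.74 (1.5 to 1.99) and SEC24C by 1.99 (1.77 to 2.21). SEC24A exceeded SEC24C by 0.35 (0.14 to 0.56) and SEC24B exceeded SEC24C by 0.25 (0.05 to 0.44). SEC24A and SEC24B were not separated, with a difference of 0.10 (-0.14 to 0.34). Likeness of sequence was described by exact words only: the canonical transcripts of the paralogues shared 0 exact words of 31 bases in any family. Alignment with mismatches, other isoforms and pseudogenes were not covered. Assignment of reads to the wrong paralogue was not tested.

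**Figure D3:**
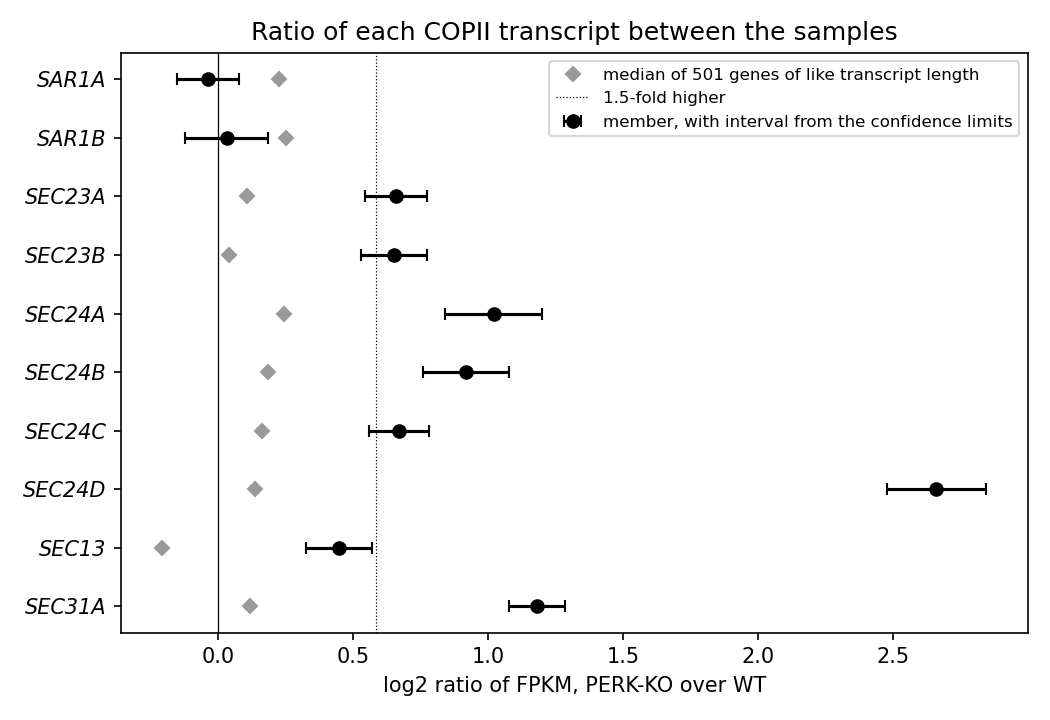
Ratio of PERK-KO to WT FPKM of the 10 members on a log2 axis, with 95% intervals propagated from the deposited limits and a mark for the median of the expressed genes nearest in transcript length. SEC24D is at 2.66 and the other SEC24 genes between 0.67 and 1.02, while SAR1A and SAR1B lie left of their length marks.

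The makeup of the SEC24 pool therefore differed between the samples. Of the summed SEC24 FPKM, SEC24D held 8.74% (7.74 to 9.74) in the WT sample against 26.2% (25.0 to 27.4) in the knockout, going from the smallest share to the second largest. SEC24C held 61.3% (59.4 to 63.2) in WT against 46.2% (44.7 to 47.8) in PERK-KO cells. The share of SEC24A was 11.4% in WT and 10.9% in PERK-KO cells, and that of SEC24B 18.6% and 16.6%. The SEC24 sum itself was 43.0 FPKM in WT and 90.7 in PERK-KO cells, a ratio of 2.11 (2.003 to 2.22). Without SEC24D it was 39.3 and 67.0, a ratio of 1.71 (1.61 to 1.81). FPKM is scaled by length, so these shares compare transcript numbers and not protein.

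**Figure D4:**
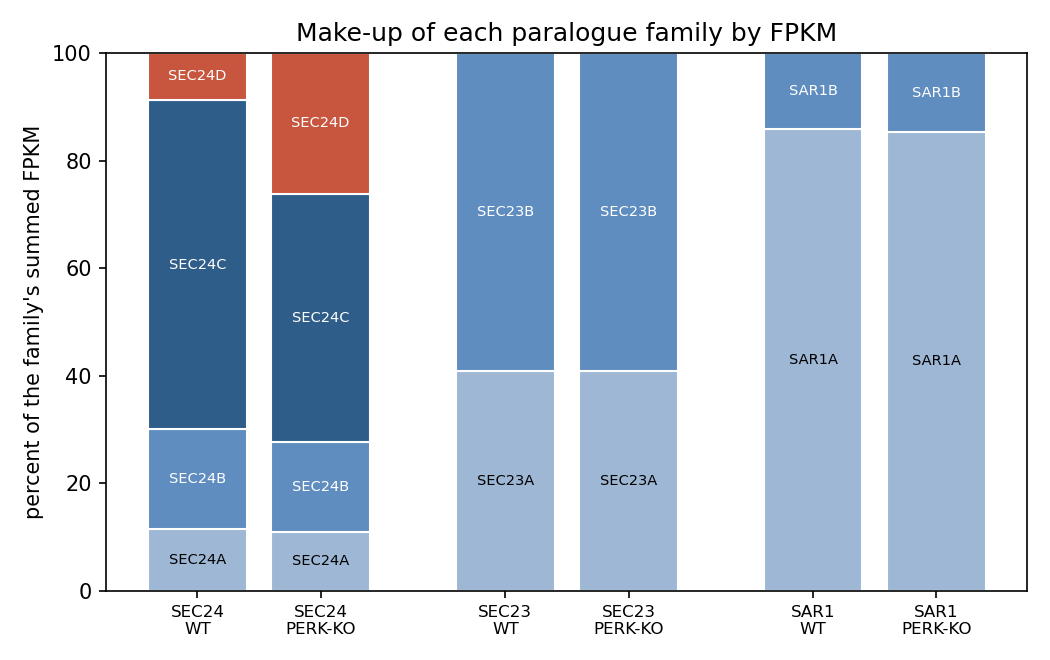
Share of each paralogue in the summed FPKM of its family, in percent, as stacked bars for WT and PERK-KO cells of the SEC24, SEC23 and SAR1 families. SEC24D goes from 8.74% to 26.2% of the SEC24 sum, while SEC23A stays near 41% of the SEC23 sum and SAR1A near 85% of the SAR1 sum.

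Both SEC23 paralogues, the partners of SEC24 in the inner coat, were higher in PERK-KO cells and by nearly the same factor. SEC23A, at chr14:39501123-39572437 on the minus strand with 20 exons, was at 14.8 FPKM (13.9 to 15.7) in WT against 23.3 (22.1 to 24.5) in the PERK-KO sample, a ratio of 1.58 (1.46 to 1.71). SEC23B, at chr20:18488188-18542059 on the plus strand with 20 exons, was at 21.5 (20.1 to 22.9) and 33.7 (31.9 to 35.5), a ratio of 1.57 (1.44 to 1.71). Their log2 ratios differed by 0.01 (-0.16 to 0.18). SEC23A held 40.8% (38.6 to 42.9) of the SEC23 sum in WT against 40.9% (39.1 to 42.7) in PERK-KO cells, so here the paralogue balance differed by less than its interval. The summed SEC24 FPKM per summed SEC23 FPKM was 1.19 (1.12 to 1.26) in WT against 1.59 (1.51 to 1.67) in PERK-KO cells.

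The outer coat genes were both higher, SEC31A by more than SEC13. SEC31A, at chr4:83739814-83812419 on the minus strand with 27 exons, encodes the rod-forming subunit of the cage and was at 21.9 FPKM (20.6 to 23.1) in WT against 49.6 (47.4 to 51.7) in PERK-KO cells. Its ratio of 2.27 (2.11 to 2.43) was the second largest of the members, and 1.06 above genes of like length on the log2 scale. SEC13, at chr3:10342615-10362858 on the minus strand with 9 exons, was the most abundant member in both samples, with 67.6 FPKM (63.4 to 71.7) and 92.2 (86.7 to 97.6). Its ratio was 1.36 (1.25 to 1.49), a log2 ratio of 0.45. At 1359 bases its transcript is the shortest of the 10, and genes of like length had a median log2 ratio of -0.21, from which SEC13 stood 0.66 apart. SEC31A per SEC13 was 0.324 (0.298 to 0.352) in WT against 0.538 (0.4998 to 0.579) in PERK-KO cells. SEC13 protein also belongs to the nuclear pore Y complex and to GATOR2, a regulator of mTORC1. Of 12 other genes of those complexes, 2 were more than 1.5-fold higher, against 10.1% of expressed genes, and 0 lower, against 7.54%. With the median of like transcript length subtracted, 0 of the 12 were more than 1.5-fold higher. The same subtraction left 864 of the expressed genes with a transcript length (92.6% of 14594) past that limit. AHCTF1 then stood at 0.53 and NUP160 at 0.47 on the log2 scale. The median log2 ratio of the 12 was -0.10, from AHCTF1 (1.70 FPKM in WT and 3.04 in PERK-KO cells) and NUP160 (22.9 and 36.0) at the top to NUP37 (37.3 and 31.4) and SEH1L (27.0 and 22.8) at the bottom.

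The SAR1 GTPases, which start coat assembly, had ratios near 1. SAR1A, at chr10:71909961-71930285 on the minus strand with 7 exons, was at 46.1 FPKM (43.5 to 48.7) in WT against 44.9 (42.4 to 47.5) in the PERK-KO sample, a ratio of 0.975 (0.900 to 1.06). SAR1B, at chr5:133936839-133968533 on the minus strand with 7 exons, was at 7.63 (7.07 to 8.20) and 7.80 (7.20 to 8.40), a ratio of 1.02 (0.918 to 1.14). The intervals of the 2 samples overlapped for both genes, and their ratios differed by 0.07 on the log2 scale (-0.12 to 0.26). SAR1A held 85.8% (84.7 to 86.9) of the SAR1 sum in WT against 85.2% (84.0 to 86.4) in PERK-KO cells. Summed SAR1 FPKM per summed SEC23 FPKM was 1.48 (1.39 to 1.59) in WT against 0.925 (0.868 to 0.985) in PERK-KO cells. SAR1B and SEC24A lie 15.9 kb apart on opposite strands of chromosome 5, yet their ratios were 1.02 and 2.03.

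In WT cells the order of levels was SEC13, SAR1A, SEC24C, SEC31A, SEC23B, SEC23A, SEC24B, SAR1B, SEC24A and SEC24D, in which SEC31A and SEC23B, and likewise SEC24B and SAR1B, had overlapping intervals. In PERK-KO cells it was SEC13, SEC31A, SAR1A, SEC24C, SEC23B, SEC24D, SEC23A, SEC24B, SEC24A and SAR1B, in which SEC31A overlapped SAR1A, SAR1A overlapped SEC24C, and SEC24D overlapped SEC23A.

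The genes around COPII were then described by fixed lists. Of 12 scaffolds and regulators of ER exit sites, 11 were expressed, with a median log2 ratio of 0.28. Of the 11, 1 was more than 1.5-fold higher and 1 lower, against 10.1% and 7.54% of expressed genes. The gene below the filter, SEC16B, was at 0.0259 FPKM in WT and 0.0888 in PERK-KO cells. The higher was MIA3, which encodes TANGO1, a receptor that helps load procollagen into COPII carriers, with 4.38 FPKM in WT and 10.9 in PERK-KO cells. PREB, the exchange factor for SAR1, was at 41.9 and 61.0 FPKM, a log2 ratio of 0.54. PDCD6, encoding the calcium-binding ALG-2 that binds SEC31A, was the lower, with 112.5 and 69.7 FPKM, a log2 ratio of -0.69, but of -0.43 relative to genes of like length, which is within 1.5-fold. Its partner PEF1 was at 56.7 and 53.3.

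Of 25 cargo receptors and vesicle SNAREs, 7 were more than 1.5-fold higher, against 10.1% of expressed genes, and 0 lower, against 7.54%. The median log2 ratio of the 25 was 0.27. The 7 included LMAN1, a lectin receptor for glycoproteins, and 4 p24 family genes, TMED2, TMED5, TMED7 and TMED10, with STX5 and USO1. TMED5 was at 10.7 FPKM in WT and 22.2 in PERK-KO cells, and USO1, which encodes the p115 tether, at 19.8 and 39.3. At the other end LMAN2 was at 139.7 and 112.7 FPKM and TMED3 at 94.0 and 77.2.

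The COPI coat, which returns vesicles from the Golgi to the ER, had 8 of 9 genes expressed, with a median log2 ratio of 0.48. Of the 8, 3 were more than 1.5-fold higher (COPA, COPG1 and ARCN1), against 10.1% of expressed genes, and 0 lower, against 7.54%. COPA was at 34.5 FPKM in WT and 68.8 in PERK-KO cells and ARCN1 at 35.4 and 68.5, while COPG2 was at 23.3 and 20.3 and COPZ2, below the filter and not counted as expressed, was at 0.283 and 0.242. For clathrin and its AP-1 and AP-2 adaptors, which coat vesicles of the Golgi and plasma membrane, the median log2 ratio was 0.02. Of these 13 genes, 0 were beyond 1.5-fold in either direction, against the same 10.1% and 7.54% of expressed genes. AP1G1 (9.36 FPKM in WT and 13.1 in PERK-KO cells) and AP2A2 (21.1 and 28.2) had the highest ratios and AP2S1 (337.8 and 229.3) and AP1S1 (49.4 and 35.8) the lowest. Relative to genes of like length the medians were 0.63 for COPII, 0.41 for COPI and -0.0011 for clathrin and adaptors. The differences between coats were not tested, as these genes come from 1 pair of samples and the COPII list was chosen by its ratios.

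Of 8 transcription factors of the ER stress and ER export programmes, 7 were expressed. Of the 7, 2 were more than 1.5-fold higher, against 10.1% of expressed genes, and 0 lower, against 7.54%. Relative to genes of like length, 4 of the 7 were higher by more than 1.5-fold. The same held for 864 of the expressed genes with a transcript length (92.6% of 14594). On the log2 scale XBP1 then stood at 1.08, CREB3L2 and ATF4 at 0.75, and CREB3L4 at 0.5855, only just past the limit. ATF4 was at 342.0 FPKM in WT and 505.6 in PERK-KO cells, a log2 ratio of 0.56 before length was subtracted. CREB3L1, at 0.421 FPKM in WT and 0.756 in PERK-KO cells, was below the filter. The 2 past 1.5-fold before length was subtracted were CREB3L2 and XBP1. CREB3L2, a membrane-bound factor that is known to activate SEC23A in cartilage, was at 7.31 FPKM in WT and 15.2 in PERK-KO cells. XBP1 was at 97.6 and 186.7 FPKM. The lowest ratios were those of CREB3 (19.1 and 20.4 FPKM) and ATF6B (32.7 and 43.0). These are mRNA levels and do not show the spliced form of XBP1 mRNA or the amount of active protein, and their part in the COPII values was not tested.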

How the data were processed

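Poly(A) RNA of WT and PERK-KO HEK293 cells was sequenced, 1 sample per genotype. Per the submitters' processing notes the authors used TopHat2 2.0.13 and Cufflinks 2.2.1 with hg19, and the deposited values are FPKM per gene with lower and upper limits, with no counts. From these, ratios of PERK-KO to WT were computed without a pseudocount for genes with FPKM of at least 1 in at least 1 sample, with intervals propagated from the limits, taken as 2 SD from the value. File starts were 0-based and are printed with 1 added. Transcript lengths came from GENCODE 44. The depth of the libraries is unknown, so fragment numbers were derived from interval widths. Intervals cover counting and assignment error only. No test across genes was run. Python 3.11.15, numpy 2.4.6, pandas 2.3.3 and matplotlib 3.10.9 were used. The calculation was tested on simulated data: for PERK-KO over WT, 99.5% of 200 genes changed 3-fold among 7585 were called. Of the unchanged genes, 1.67% were called. The simulation used genes above a higher FPKM limit than the filter here, with noise from the interval widths and no spread between cultures. It checks the arithmetic and does not show how reliable the 1.5-fold calls are. Members, lists and alternatives were chosen with earlier results of these data known. Named were all members, the 2 highest and 2 lowest ratios of each list, the 3 genes nearest to SEC24D and EIF2AK3. The neighbours METTL14, USP53 and SEC24B-AS1, the cell markers, and the genes past 1.5-fold in small counts were named after their values were seen.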

Additional observations from a re-analysis of the deposited data

How the results depend on the processing

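No paired analysis was possible because there was 1 sample per genotype, and for the same reason no sample could be left out. Of the members, SAR1B alone changed sign under the 10 alternatives, from a log2 ratio of 0.03 to -0.0094 with the median of expressed genes set to 0 and to -0.22 after subtracting the median of like transcript length. With a pseudocount of 1, the log2 ratio of SEC24D was 2.38 and its WT share 10.1%, and 944 expressed genes were more than 1.5-fold higher in place of 1481. With all genes above 0 FPKM in both samples kept in place of the filter, 2496 genes were higher and 1942 lower (1100 as reported). With FPKM of at least 5 these counts were 872 and 702. At a fold of 2, 3 members in place of 7 were higher, as were 479 genes (3.28% of expressed genes), and 304 genes were lower. After subtracting the median of like transcript length, 864 of the expressed genes with a transcript length (92.6% of 14594) were higher and 697 lower. Of the 10 members, 6 were then higher, where SEC24C and SEC23A no longer passed and SEC13 did. The members' median log2 ratio stayed between 0.62 and 0.66 and the log2 ratio of SAR1A between -0.26 and -0.04. The limit on all statements is 1 library per genotype, which gives no spread between cultures. Among the related lists, the count higher for ER exit sites was 2 in place of 1 with all genes above 0 FPKM in both samples or with length subtracted. For the partners of SEC13 it was 1 in place of 2 with a pseudocount of 1 or FPKM of at least 5. The counts of all genes under these settings are those given above. With the median of expressed genes set to 0, 1 of 13 clathrin or adaptor genes was more than 1.5-fold lower in place of 0. So were 1279 of 14594 expressed genes. At a fold of 2, against 3.28% of expressed genes, 1 of 25 cargo receptors and 0 of 8 COPI genes were higher. So were 0 of 12 partners of SEC13 and 1 of 7 transcription factors.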
